A study of Homo sapiens with 6 samples.

Results

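The mismatch repair genes of the MutS and MutL families described here are MSH3, MSH6, PMS1, PMS2 and MLH3, a chosen set. They were taken by name, as every probe set that the array's annotation gives to any of these 5 genes, out of 13119 gene symbols on the array. This gave 11 of the 22215 probe sets left after 62 control probe sets were set aside. Of the 11, 9 carried a single gene symbol, and 2 were annotated jointly to PMS2 and PMS2CL, a pseudogene copy of part of PMS2. PMS2 had no probe set of its own, so its values below are those of PMS2 and PMS2CL together.

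Transcripts were read by oligonucleotide arrays in MDA-MB-231 cells, a human triple-negative breast cancer cell line grown in RPMI medium with serum. The baseline group was 3 samples at 0 h, named E, 4 and 5, and the dinaciclib group was 3 samples taken 12 h after dinaciclib, dissolved in DMSO, had been put into the medium, named F, 4 and 5. Dinaciclib is a small molecule inhibitor of cyclin-dependent kinases, among them CDK9, which RNA polymerase II needs for productive elongation. The labels state neither the dose nor whether baseline cells received DMSO, and no group was kept for 12 h without drug, so drug, time in culture and solvent cannot be told apart. Nothing in the labels ties the replicates to separate cultures, and the p-values below therefore reflect the spread among these 6 samples alone, which may be technical.

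Mismatch repair removes bases that were paired wrongly during DNA replication. MutS proteins recognise the fault: MSH6 is a subunit of MutS alpha, which binds single mispairs and short loops, and MSH3 is a subunit of MutS beta, which binds larger loops. MutL proteins act next: PMS2 is the endonuclease subunit of MutL alpha, which nicks the new strand, MLH3 belongs to MutL gamma, which works mainly in meiotic recombination, and PMS1 belongs to MutL beta, whose role in repair is less clear. Loss of mismatch repair gives microsatellite instability and a high mutation load in tumours.

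Median intensities were 53.3 to 66.2 in the baseline arrays and 40.6 to 46.8 in the dinaciclib arrays. With 3 arrays per group, their number limits how precisely any change is known. Each marker gene was read on its brightest probe set with a single gene symbol. Markers of the line were bright: 6 of 7 listed genes had such a probe set, with mean intensities of 3839 to 8910.5 and VIM the brightest. Their summed intensity was 33894 to 42419 at baseline and 32505 to 36834 after dinaciclib. Of 7 luminal markers, ESR1, PGR, FOXA1 and CDH1 lay under the 40th percentile of mean signal, ERBB3 just above it, and EPCAM (211) and GATA3 (321) were well above. Summed luminal intensities were 529.5 to 726 and 515 to 586. Markers of other tissues and cell types, 9 of 12 with such a probe set, lay between 1.12 and 41.6, with sums of 137 to 141 and 93.5 to 125. They serve below as a rough guide to how dim an unexpressed gene reads. One of them, PECAM1, passed as lower (-1.57, limma, adjusted p = 0.0419), so a call can also be made at such signals. Samples E and F stood apart from the numbered samples: an 18S ribosomal RNA control read 736 and 1155 in them and 8273 to 9061 in the other 4. Results are therefore also given for the 4 numbered samples alone.

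Each MutL gene had at least 1 probe set that passed as lower after dinaciclib, and no MutS probe set passed the test. PMS1 fell to 27.2% of its baseline level, the shared PMS2 and PMS2CL probe sets to 41.8% and 48.2%, and MLH3 to 43.0% on its brightest probe set. On their brightest probe sets MSH6 stood at 79.9% and MSH3 at 71.4%, without passing. The dimmer MLH3 probe sets, at 57.1% and 54.4%, did not pass either, and neither did the dimmer MSH3 probe set, at 57.2%. Of the 11 probe sets, 4 fell, 0 rose and 7 did not pass (limma on log2(value + 1), Benjamini-Hochberg adjusted p under 0.05 over all 22215 probe sets). Over all probe sets, 13.4% passed as lower and 3.86% as higher. At an unadjusted p under 0.05, 6 of the 11 were lower and 0 higher, against 23.0% and 7.56% of all probe sets. Without baseline 4, or without baseline 5, 2 of the 11 passed as lower, those of PMS1 and MLH3 204838_s_at, where 5.60% and 5.62% of all probe sets did (limma). Without dinaciclib F, 6 passed, where 9.88% of all probe sets did. The median log2 change of the 11 was -0.81 against -0.21 over all probe sets. Whether the MutL genes as a family differed from the MutS genes was not tested. In bulk RNA, less transcript per cell and fewer cells that carry it cannot be told apart.

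**Figure D1:**
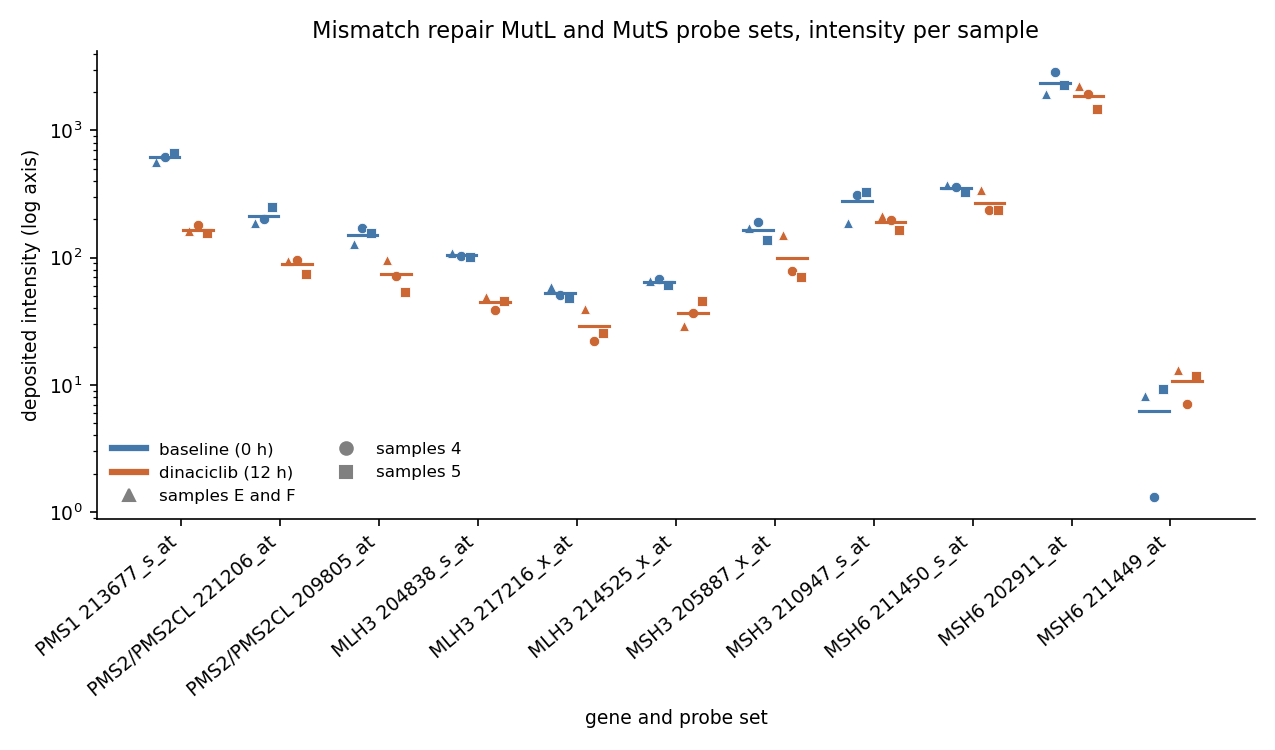
Deposited intensity (log axis) of the 11 probe sets in each of the 3 baseline (blue) and 3 dinaciclib (orange) samples; bars are group means, and triangles mark samples E and F. For PMS1 the dinaciclib values of 157 to 181 lie far below the baseline values of 563 to 665, while for MSH6 202911_at the groups overlap.

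PMS1 had the largest change of the genes, on its only probe set, 213677_s_at. Its intensity was 563, 616 and 665 in baseline E, 4 and 5 and 161, 181 and 157 in dinaciclib F, 4 and 5. The groups did not overlap, and the highest dinaciclib sample was below the lowest baseline sample by a wide margin. On the log2(value + 1) scale PMS1 went from 9.26 ± 0.12 to 7.38 ± 0.11 (SD, n = 3 per group), which is a shift of -1.88 (standard error 0.18; limma, adjusted p = 0.00368). This is a 3.68-fold lower level. Among all probe sets, 3.59% had a lower log2 change than PMS1. PMS1 passed the threshold under each of the 16 alternatives tried, with log2 changes of -1.96 to -1.43 and adjusted p of 1.88e-05 to 0.0367 (limma). From E to F alone it changed by -1.80, and within the numbered samples by -1.92 (limma, adjusted p = 0.0367).

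PMS2, the endonuclease subunit of MutL alpha, was read with PMS2CL by 221206_at and 209805_at. Probe set 221206_at read 186, 201 and 252 at baseline and 94.8, 96.3 and 74.3 after dinaciclib. All 3 treated samples lay below all baseline samples. The log2 change was -1.26 (standard error 0.22; limma, adjusted p = 0.0140), from 7.73 ± 0.23 to 6.47 ± 0.21 (SD, n = 3). It missed the threshold within the numbered samples (-1.40, adjusted p = 0.0545), without baseline 4 (-1.29, 0.0504) and without baseline 5 (-1.13, 0.0588), and passed under the other 13 of 16 alternatives.

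Probe set 209805_at read 129, 170.4 and 155 at baseline and 96.6, 71.7 and 53.6 after dinaciclib. The groups did not overlap here either, though baseline E and dinaciclib F lay nearest to each other. The log2 change was -1.05 with a standard error of 0.27, close to the threshold (limma, adjusted p = 0.0450). It passed under only 5 of 16 alternatives, with adjusted p from 0.00607 to 0.154 over the 16. Leaving out any single sample other than dinaciclib F ended the call. Its adjusted p was then 0.0644, 0.139 and 0.132 with baseline E, 4 or 5 removed in turn, and 0.115 and 0.113 with dinaciclib 4 or 5 removed (limma). From E to F its change was -0.41, against -1.37 within the numbered samples (limma, adjusted p = 0.0519).

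PMS2 has many partial copies in the genome, and the array carried 16 probe sets annotated to PMS2P pseudogenes of that family, a set that was looked up after the values of the PMS2 probe sets were seen. None of the 16 passed in either direction as deposited (limma), where 13.4% of all probe sets passed as lower and 3.86% as higher. At an unadjusted p under 0.05, 1 was lower and 2 were higher, against 23.0% and 7.56% of all. The median log2 change of the 16 was 0.07, with a range of -0.59 to 0.66. The highest value was that of PMS2P1 on 214756_x_at, with 183, 215 and 194 at baseline and 264, 337 and 338 after dinaciclib. Its log2 change of 0.66 (standard error 0.20) did not pass (limma, adjusted p = 0.0739). After quantile normalization 7 of the 16 passed as higher, where 9.59% of all probe sets did, and after centring on the array median 7 did as well, where 15.7% of all probe sets did. How far probes cross between these near-identical copies was not tested, and values of single PMS2P genes are uncertain for that reason.

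MLH3, a subunit of MutL gamma, had 3 probe sets, and all of its 3 treated samples lay below all baseline samples on each of them. The brightest, 204838_s_at, read 109, 104 and 102 at baseline and 49.4, 39.1 and 45.7 after dinaciclib. The baseline values were close together, with an SD of 0.04 log2 units around 6.73. The treated values lie at the upper end of the markers of other tissues, where COL1A1 read 32.6 to 47.2, so the size of the fold is uncertain. The log2 change of this probe set was -1.22 (standard error 0.19; limma, adjusted p = 0.00954). It passed under 15 of 16 alternatives and missed the threshold after quantile normalization (-0.75, limma, adjusted p = 0.0509). Under that scaling 2 of the 11 probe sets passed as lower, PMS1 and PMS2/PMS2CL 221206_at, where 10.5% of all did.

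The remaining MLH3 probe sets carry the suffix x_at, which the array's maker gives to sets with probes that may match other transcripts. Probe set 214525_x_at read 65.6, 67.7 and 60.7 at baseline and 29.1, 36.7 and 45.3 after dinaciclib, a log2 change of -0.81 (standard error 0.22) that did not pass (limma, adjusted p = 0.0557). Probe set 217216_x_at read 58.7, 51.3 and 48.4 at baseline and 39.2, 22.04 and 25.8 after dinaciclib, a log2 change of -0.88 (standard error 0.26) that did not pass either (adjusted p = 0.0694). Their mean signals rank above 49.4% and 46.6% of all probe sets, and their treated values lie within the range of the markers of other tissues. Each passed under 4 of 15 alternatives, among them log2(value + 16), where their log2 changes were -0.61 (adjusted p = 0.0237) and -0.63 (adjusted p = 0.0343).

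The brightest MSH6 probe set was 202911_at, whose mean signal ranks above 93.9% of all probe sets. It read 1926, 2880.1 and 2259 at baseline and 2233, 1931 and 1479 after dinaciclib, and the groups overlapped. Its log2 change was -0.32 with a standard error of 0.26, which did not pass (limma, adjusted p = 0.463), and the 95% interval ran from -0.94 to 0.29. The point estimates for PMS1, PMS2/PMS2CL and MLH3 204838_s_at lie outside this interval, and falls of up to 0.94 lie inside it. Those of the other MLH3 probe sets (-0.81 and -0.88) are inside. The 95% intervals of PMS2/PMS2CL 221206_at (-1.79 to -0.73) and 209805_at (-1.71 to -0.40) and of MLH3 204838_s_at (-1.67 to -0.77) overlap it. Differences between MSH6 and the MutL genes were not tested. The sign depended on scaling, at 0.13 after centring on the array median and -0.36 after quantile normalization, with no call under either. From E to F the value was 0.21, and within the numbered samples it was -0.59 (limma, adjusted p = 0.230).

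The second MSH6 probe set, 211450_s_at, read 375, 358 and 329.7 at baseline and 339, 239 and 236 after dinaciclib. Dinaciclib F lay within the baseline range, and the other treated samples lay below it. The log2 change was -0.40 with a 95% interval of -0.93 to 0.13 (limma, adjusted p = 0.284), and it was 0.05 after centring on the array median and 0.01 after quantile normalization. The third, 211449_at, read 8.16, 1.303 and 9.33 at baseline and 13.2, 7.02 and 11.7 after dinaciclib. These values lie in the range of the markers of other tissues, so this probe set gives no usable level of MSH6, and its log2 change of 0.91 did not pass (limma, adjusted p = 0.384).

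MSH3, the subunit of MutS beta, had a pair of probe sets. On the brighter, 210947_s_at, intensities were 187, 313 and 330.1 at baseline and 214, 198 and 165 after dinaciclib. Baseline E lay among the treated samples, and baseline 4 and 5 lay above them. The log2 change was -0.49 with a 95% interval of -1.16 to 0.19 (limma, adjusted p = 0.310). It was near 0 after quantile normalization (-0.04) and after centring on the array median (-0.03).

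On the dimmer MSH3 probe set, 205887_x_at, intensities were 169.6, 191 and 138 at baseline and 150.2, 78.2 and 69.95 after dinaciclib. This probe set also carries the suffix x_at, so its probes may match other transcripts. Dinaciclib F lay within the baseline range, and dinaciclib 4 and 5 lay at about the same lower level. The log2 change was -0.81 (standard error 0.34; limma, adjusted p = 0.167). Without dinaciclib F it passed, at -1.14 (adjusted p = 0.0432), and it did so again once the dimmest probe sets had been left out of the fit (-0.81, adjusted p = 0.0481). From E to F the values of the MSH3 probe sets were 0.20 and -0.17, against -0.83 and -1.12 within the numbered samples, where neither passed (limma, adjusted p = 0.0844 and 0.0755).

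**Figure D2:**
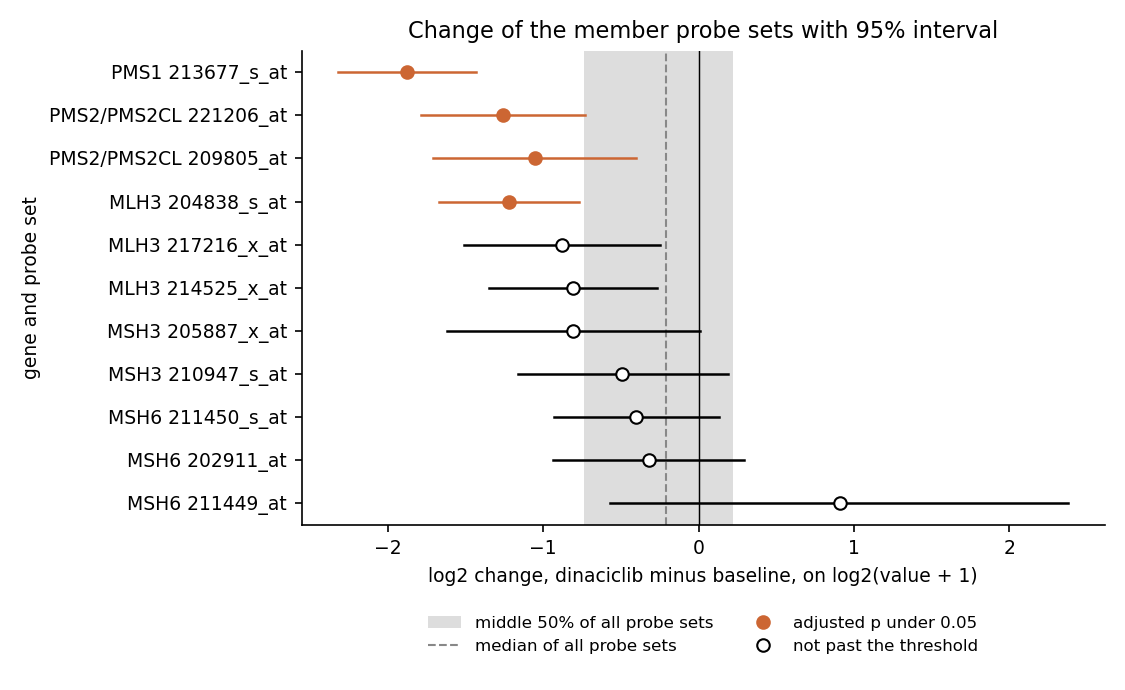
Log2 change (dinaciclib minus baseline, on log2(value + 1)) of the 11 probe sets with its 95% interval from limma; filled points passed at an adjusted p under 0.05, the band holds the middle 50% of all 22215 probe sets and the dashed line is their median of -0.21. The 4 filled points belong to PMS1, PMS2/PMS2CL and MLH3, between -1.88 and -1.05.

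The groups did not overlap, with dinaciclib lower, in 6 of the 11 probe sets, which are all those of PMS1, PMS2/PMS2CL and MLH3. Over all probe sets this held for 26.5%. None of the 5 MSH3 and MSH6 probe sets had groups apart. Within the numbered samples, where a group has 2 samples, dinaciclib was lower without overlap for 10 of the 11, all but MSH6 211449_at, against 42.1% of all probe sets. There 2 passed, PMS1 (limma, adjusted p = 0.0367) and MLH3 204838_s_at (0.0444), where 7.75% of all probe sets passed as lower. From E to F, with 1 sample on each side and no test, MSH6 and MSH3 had values of -0.17 to 0.63. The MutL probe sets ranged from -1.80 for PMS1 to -0.41 for PMS2/PMS2CL 209805_at, with MLH3 217216_x_at at -0.57. The part of samples E and F in the missed MutS calls was not tested.

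Differences between genes within an array depend little on a factor that multiplies the whole array. They were taken between the brightest probe sets of genes that serve as alternative subunits, in 4 comparisons, and only their change is read, since different probe sets do not share a scale. PMS1 minus PMS2/PMS2CL was 1.59, 1.61 and 1.39 log2 units at baseline and 0.76, 0.90 and 1.07 after dinaciclib. PMS1 thus lost 0.62 log2 units more than PMS2/PMS2CL (standard error 0.11), and the groups did not overlap (two-sided exact permutation test, p = 0.1, adjusted p = 0.2). PMS1 minus MLH3 was 2.36, 2.55 and 2.69 at baseline and 1.69, 2.18 and 1.76 after dinaciclib, a change of -0.66 (standard error 0.18, exact p = 0.1, adjusted p = 0.2). With 3 against 3 samples the exact test cannot go below 0.1, so neither difference could pass.

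The other comparisons showed groups that overlapped. PMS2/PMS2CL minus MLH3 changed by -0.04 with a standard error of 0.23 (exact permutation test, p = 0.7, adjusted p = 0.7). MSH6 minus MSH3 was 3.36, 3.20 and 2.77 at baseline and 3.38, 3.28 and 3.16 after dinaciclib, a change of 0.16 with a standard error of 0.19 (exact permutation test, p = 0.6, adjusted p = 0.7), and it turned to -0.32 after quantile normalization. Among 6 comparisons of probe sets of the same gene, MLH3 204838_s_at against 217216_x_at had groups apart, with a change of -0.34 (exact permutation test, p = 0.1, adjusted p = 0.6), and the other 5 overlapped.

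**Figure D3:**
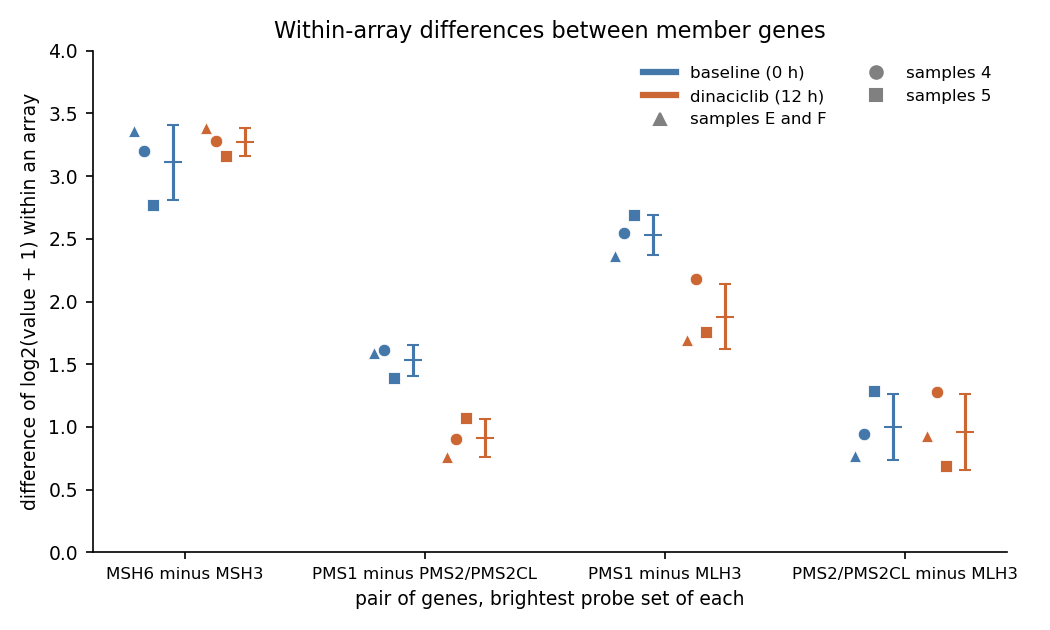
Difference of log2(value + 1) between the brightest probe sets of 2 genes in each array, for 3 baseline (blue) and 3 dinaciclib (orange) samples, with the mean and SD beside the points. PMS1 minus PMS2/PMS2CL and PMS1 minus MLH3 are lower in all 3 dinaciclib samples, and MSH6 minus MSH3 and PMS2/PMS2CL minus MLH3 overlap.

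The promoter windows of the genes are shown as a description, and no link between their letters and the changes was tested. Each window holds 250 bases before and 50 bases after the start of the gene, from RefSeq on GRCh38.p14, and all 5 genes matched by symbol. PMS2 had 2 such windows and MSH6 had 4, and only the one at the start of the gene record was searched. Capitals mark matches, on either strand, to the CCAAT box (CCAAT), the GC box (GGGCGG), the cell cycle element CHR (TTTGAA) and the E2F sequences TTTGGCGC, TTTCGCGC and TTTCCCGC, which may overlap each other.
PMS1, chr2:189784200-189784499, plus strand: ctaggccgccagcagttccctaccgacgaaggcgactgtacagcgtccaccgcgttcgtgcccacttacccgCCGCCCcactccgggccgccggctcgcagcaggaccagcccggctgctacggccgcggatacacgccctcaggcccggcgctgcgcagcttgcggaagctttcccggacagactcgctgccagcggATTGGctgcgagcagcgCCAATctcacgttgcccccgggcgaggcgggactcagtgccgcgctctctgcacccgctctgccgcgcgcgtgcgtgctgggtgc
PMS2, chr7:6009057-6009356, minus strand: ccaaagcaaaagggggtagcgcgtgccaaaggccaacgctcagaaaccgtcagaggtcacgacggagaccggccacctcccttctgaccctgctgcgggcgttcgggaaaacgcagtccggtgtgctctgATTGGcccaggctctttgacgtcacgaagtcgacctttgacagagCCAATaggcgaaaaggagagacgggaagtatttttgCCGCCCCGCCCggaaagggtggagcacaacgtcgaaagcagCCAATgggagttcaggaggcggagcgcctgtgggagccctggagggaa
MSH3, chr5:80654402-80654701, plus strand: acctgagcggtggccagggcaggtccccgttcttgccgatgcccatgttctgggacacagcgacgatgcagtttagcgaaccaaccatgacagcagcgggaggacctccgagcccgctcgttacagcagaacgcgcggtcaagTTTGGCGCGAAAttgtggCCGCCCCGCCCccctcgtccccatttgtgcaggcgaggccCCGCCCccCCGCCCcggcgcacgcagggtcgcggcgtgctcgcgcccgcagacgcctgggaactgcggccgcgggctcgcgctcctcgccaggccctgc
MSH6, chr2:47782895-47783194, plus strand: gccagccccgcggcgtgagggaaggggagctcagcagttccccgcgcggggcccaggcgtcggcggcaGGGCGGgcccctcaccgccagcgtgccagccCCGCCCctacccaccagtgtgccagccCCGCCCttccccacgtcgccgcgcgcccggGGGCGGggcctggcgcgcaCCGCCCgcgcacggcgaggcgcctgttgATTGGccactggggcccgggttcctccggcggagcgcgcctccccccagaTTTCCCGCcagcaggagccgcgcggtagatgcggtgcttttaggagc

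In these windows PMS1 held 2 CCAAT boxes and 1 GC box, and PMS2 held 3 CCAAT boxes and 2 GC boxes. MSH3 held 4 GC boxes and an overlapping pair of E2F sequences, 1 on each strand, and MSH6 held 5 GC boxes, 1 CCAAT box and 1 E2F sequence. The window of MLH3 held none of the searched letters and is not printed. Of 35116 windows of this length in the table, 34.6% held a CCAAT box, 45.0% a GC box, 15.2% a CHR and 2.74% any of the E2F sequences. The matches are descriptions of letters and say nothing of binding. In the same table the starts of PMS1 and ORMDL1 lie 111 bases apart on opposite strands at the nearest, and those of PMS2 and AIMP2 166 bases apart, and no probe set was annotated to either neighbour.

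Downstream of the MutS and MutL proteins, the exonuclease EXO1 removes the faulty strand, the clamp PCNA and its loader RFC direct the reaction, RPA covers the single strand, and DNA polymerase delta and the ligase LIG1 refill and close the gap. Of 19 listed partner genes, among them the meiotic MutS genes MSH4 and MSH5, 18 had a probe set, and MSH5 had none with a single symbol. Of their 28 probe sets, 6 fell, in EXO1, RFC4, RFC5, POLD3 and POLD4, 0 rose and 22 did not pass (limma), where 13.4% of all probe sets fell and 3.86% rose. At an unadjusted p under 0.05, 11 were lower and 2 higher, against 23.0% and 7.56% of all. Their median log2 change was -0.31 as deposited and 0.14 after centring on the array median, beside -0.21 and 0.24 over all probe sets. The sign of the list's median thus depends on scaling, and it lay below that of all probe sets under both.

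EXO1 on 204603_at read 409, 484 and 442 at baseline and 227, 213 and 132 after dinaciclib, without overlap. Its log2 change was -1.25 (standard error 0.26; limma, adjusted p = 0.0244). RFC4, a clamp loader subunit, read 1847, 2529.9 and 2325 at baseline and 867, 924 and 721 after dinaciclib, a log2 change of -1.41 (standard error 0.22, limma, adjusted p = 0.00974). Its treated values all lay below its baseline values. RFC5, another subunit of the loader, fell on 203209_at (-1.20, standard error 0.23, limma, adjusted p = 0.0173) and 203210_s_at (-0.85, standard error 0.22, adjusted p = 0.0421). It did not pass on 213734_at (-0.48, adjusted p = 0.420). No probe set of the loader subunits RFC1, RFC2 and RFC3 passed. Those of RFC1 and RFC2 had log2 changes of -0.73 to -0.23. Both of RFC3 lay above 0, at 0.62 and 0.53 (limma, adjusted p = 0.106 and 0.252).

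POLD3, an accessory subunit of polymerase delta, read 519, 708 and 631 at baseline and 261, 241 and 157 after dinaciclib, a log2 change of -1.51 (standard error 0.27; limma, adjusted p = 0.0145). POLD4, its smallest subunit, had a log2 change of -1.04 (standard error 0.23, limma, adjusted p = 0.0277). LIG1 read 275, 371 and 343 at baseline and 139, 217 and 203 after dinaciclib, without overlap, and did not pass (-0.84, limma, adjusted p = 0.0726). PCNA was bright and overlapped between groups, with 3234, 4725 and 4571 against 3178, 3979 and 2914. Its log2 change of -0.31 did not pass (limma, adjusted p = 0.464) and was 0.14 after centring on the array median. MSH4, the meiotic MutS gene, read 1.83 to 19.4 in the 6 samples, within the range of the markers of other tissues.

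Counts for the partners moved with the samples and settings used.  Without baseline 4 or without baseline 5, 1 partner probe set passed as lower, where 5.60% and 5.62% of all probe sets did. In both fits the EXO1 call was lost (limma, adjusted p = 0.0870 and 0.0812), as was that of POLD3 (0.0584 and 0.0574) and of RFC5 on 203209_at (0.0680 and 0.0723). The EXO1 call was also lost, narrowly, without baseline E, without dinaciclib 4 (0.0562) and within the numbered samples (0.0701). RFC5 on 203209_at was lost without dinaciclib 4 (0.0562) or F (0.0504) too, and POLD4 and RFC5 on 203210_s_at each lost their call under 9 alternatives. RFC4 passed under all 16. Without baseline E, 4 partner probe sets were lower and 1 higher, against 12.1% and 2.83% of all. Within the numbered samples 3 were lower and 1 higher, against 7.75% and 2.02%. With log2(value + 16), 11 were lower and 2 higher, against 18.1% and 5.64%, and with a trended, robust variance 11 and 2, against 18.1% and 5.81%. With dim probe sets left out they were 11 and 2, against 30.0% and 9.51%. Higher calls were also made after median centring (5, against 15.7%), after quantile normalization (2, both of RFC3, against 9.59%) and with the letter or number covariate (1, against 5.34%).

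**Figure D4:**
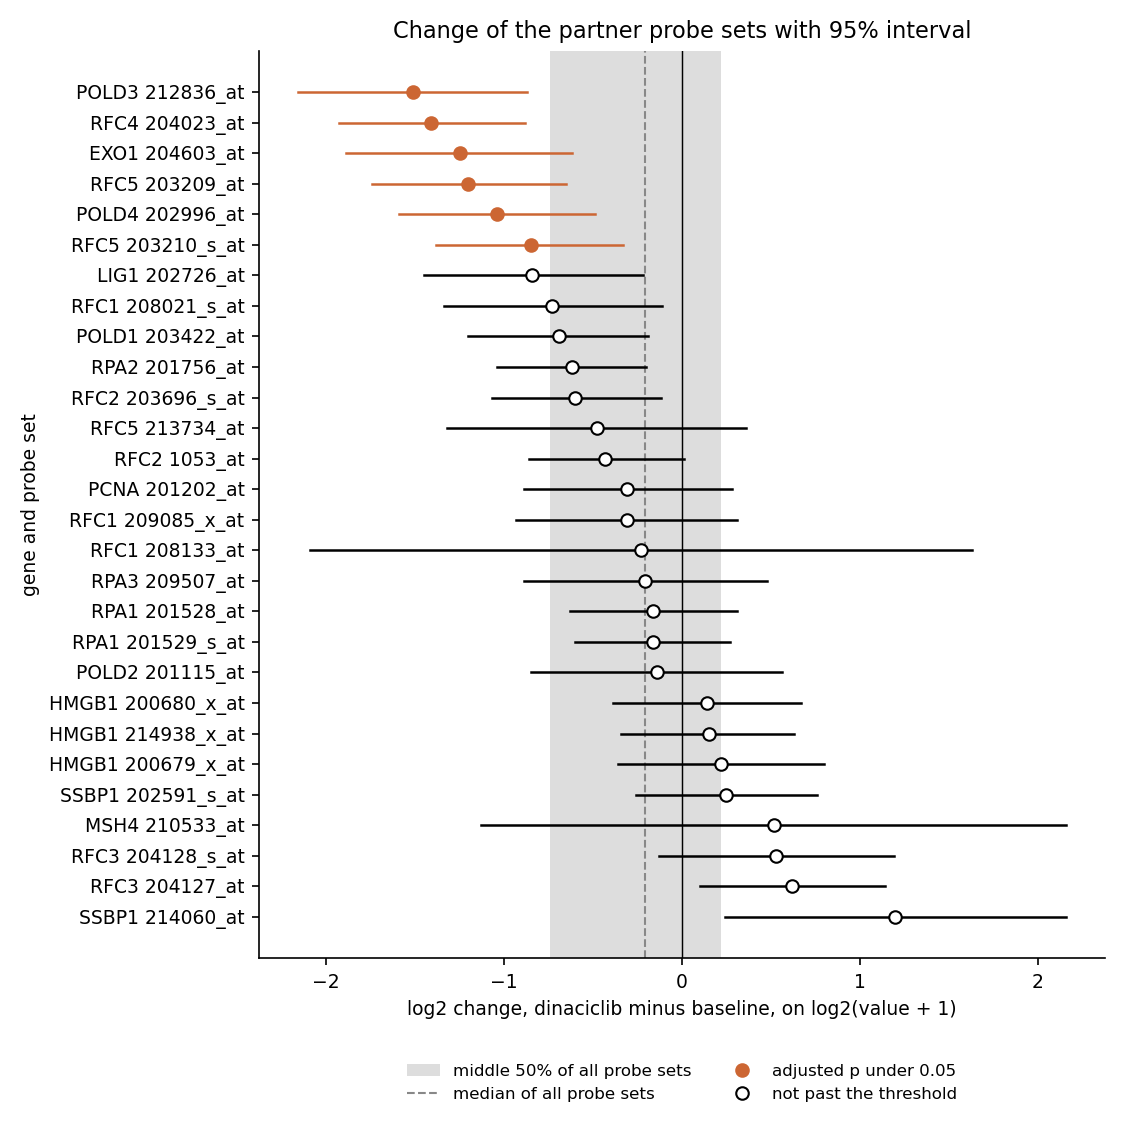
Log2 change (dinaciclib minus baseline, on log2(value + 1)) of the 28 partner probe sets with its 95% interval from limma, in order of the change; filled points passed at an adjusted p under 0.05, and band and dashed line give the middle 50% and the median of all probe sets. The 6 filled points, from POLD3 at -1.51 to RFC5 at -0.85, all lie below 0.

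Beside other excision pathways, 4 of 11 MutS and MutL probe sets fell (36.4%), against 12 of 27 (44.4%) for base excision repair genes and 5 of 22 (22.7%) for nucleotide excision repair genes. Rises were 0, 0 and 2. Median log2 changes were -0.81, -0.99 and -0.45. The differences between these lists were not tested. The share of MutS and MutL probe sets that fell lay above the 13.4% of all probe sets, but the median of their mean log2 signals was 6.97 against 5.70 over all. With dim probe sets left out, 30.0% of the remaining 13329 passed as lower, where 7 of the 10 remaining members did (limma).

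The profiles over the 6 samples most like each gene's brightest probe set were sought among 11786 probe sets with a single symbol that were not dim, by root mean square distance after centring each profile on its mean. Nearest to PMS1 were PTPRK (0.033 log2 units) and EIF2B4 (0.052). Nearest to PMS2/PMS2CL were AK6 (0.053) and PCM1 (0.076), and to MLH3 AIFM1 (0.087) and TEX2 (0.089). MSH3 had THAP11 (0.063) and RNPEPL1 (0.065), and MSH6 had HIVEP3 (0.061) and DSTYK (0.066). The log2 changes of these neighbours are close to those of the genes by construction, since the distance uses the same values, as with -1.86 for PTPRK beside -1.88 for PMS1 and -1.13 for AIFM1 beside -1.22 for MLH3.

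The sizes of all these changes depend on how the arrays are scaled. The dinaciclib arrays had lower medians, while their mean log2 signals of spiked controls were 7.79 to 8.19 against 7.81 to 7.93 at baseline. Centring on the array median moved the median log2 change of all probe sets from -0.21 to 0.24, quantile normalization moved it to 0.03 and centring on spiked controls to -0.29. Relative to the median probe set, the log2 change as deposited was -1.67 for PMS1, -1.05 and -0.85 for the PMS2/PMS2CL probe sets 221206_at and 209805_at, and -1.01 for MLH3 204838_s_at. For MSH3 210947_s_at it was -0.28 and for MSH6 202911_at -0.12. The share of all calls that were lower was 77.6% as deposited, 52.3% after quantile normalization, 35.7% after centring on the median and 82.3% with spiked controls. Under these scalings PMS1 had log2 changes of -1.54, -1.43 and -1.96 and passed each time.

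**Figure D5:**
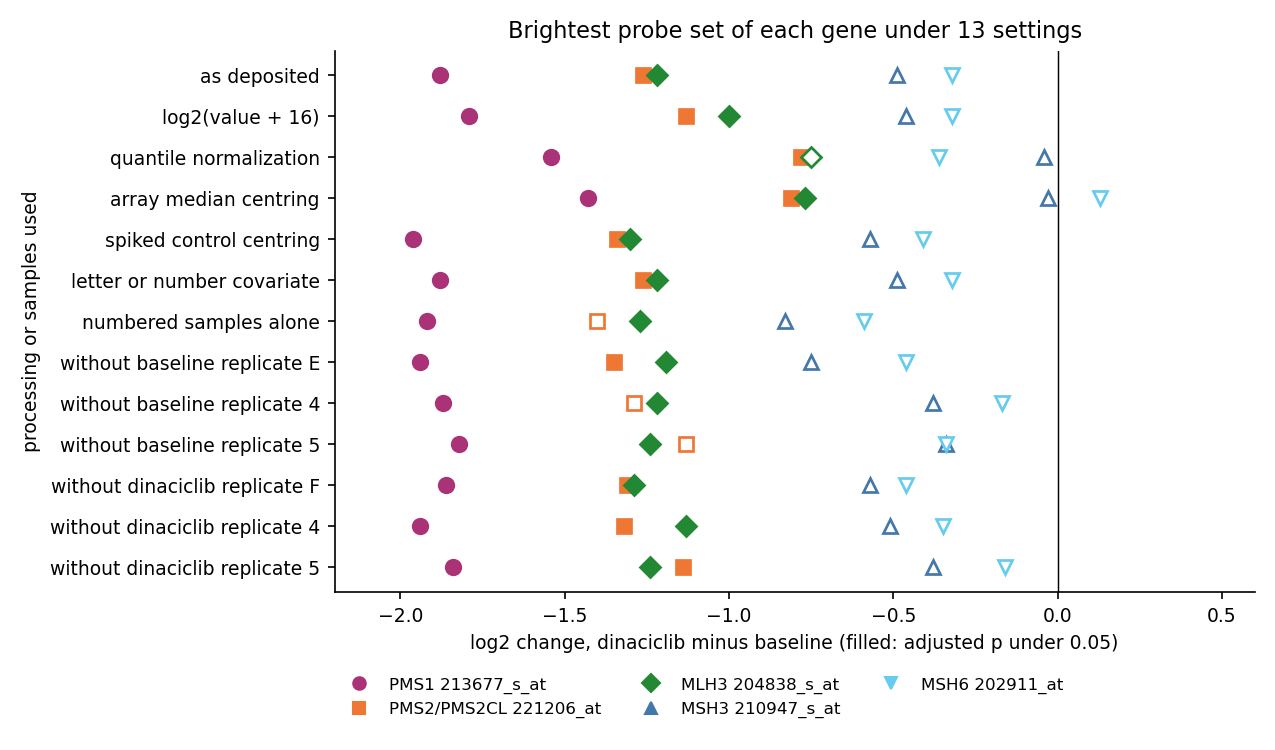
Log2 change (dinaciclib minus baseline) of the brightest probe set of each gene as deposited and under other settings; filled symbols passed at an adjusted p under 0.05 (limma). PMS1 stays between -1.96 and -1.43 and filled throughout, and MSH3 and MSH6 are open throughout.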

How the data were processed

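The authors deposited an intensity on a linear scale for each probe set on each array. The array's background correction and scaling are not given in the sources used here. Their unit was judged from the values, which are not on a log scale and have no common median. Gene symbols come from GEO's annotation of the array, which can be old, and PMS2 shares both of its probe sets with PMS2CL. All 6 columns were used. Values were tested as log2(value + 1), with no further scaling, by lmFit and eBayes of limma 3.58.1 (R 4.3.3) over 22215 probe sets, group as the only term, with Benjamini-Hochberg adjustment; called means an adjusted p under 0.05. The log2(value + 1) scale understates changes of dim probe sets. Within-array differences had two-sided exact permutation tests (scipy 1.17.1). Fits were tested on simulated data. The members, lists, tests and alternatives were chosen with earlier results of these data known, and the PMS2P probe sets after seeing values.

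Named were all member probe sets, partner genes past the threshold, EXO1, PCNA, LIG1, and the 2 nearest profiles of each gene. Others (RFC5 213734_at, RFC1, RFC2, RFC3, PMS2P1, MSH4, PECAM1, COL1A1) were picked after values were seen. Alternatives were log2(value + 16), quantile, median and spiked control scaling, no probe sets under the 40th percentile of mean signal, trend and robust variance, 1 probe set per gene, a letter or number covariate, a replicate block, the numbered samples alone and each sample left out. Figures were drawn with matplotlib 3.10.9.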

Additional observations from a re-analysis of the deposited data

How the results depend on the processing

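Without further scaling, 4 member probe sets fell; the count was 2 after quantile normalization, 2 in the numbered samples alone, 7 without dim probe sets and 2 to 6 with a sample left out, lowest without baseline 4 or 5. No member rose under any alternative. Partner falls, 6 as deposited, were 11 with log2(value + 16), 11 with trended, robust variance, 11 without dim probe sets, 3 in the numbered samples and 1 to 4 with a sample left out. Partner rises, 0 as deposited, were 5 after median centring, 2 after quantile normalization, 2 with log2(value + 16), 2 with trended, robust variance, 2 without dim probe sets, 1 with the letter or number covariate, 1 in the numbered samples and 0 to 1 with a sample left out. Over all probe sets, falls were 2971 as deposited, 1938 after median centring, 1721 in the numbered samples and 1245 to 2684 with a sample left out. Rises were 857 as deposited, 3487 after median centring, 2130 after quantile normalization, 1291 with trended, robust variance, 538 with 1 probe set per gene, 520 with spiked controls, 449 in the numbered samples and 362 to 629 with a sample left out. The sign turned after median centring for MSH6 202911_at (0.13), MSH6 211450_s_at (0.05) and PCNA (0.14), and after quantile normalization for MSH6 211450_s_at (0.01); MSH6 minus MSH3 became -0.32 there. The causes were not tested.

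The labels give replicate numbers 4 and 5 to both groups, and the main fit did not treat these samples as pairs. Deviations from the group means of same-numbered samples correlated at 0.0826 and 0.0765 (E with F, 0.169). Every sample correlated best with its own number or with the other letter. Small correlations over all probe sets cannot settle whether the samples are pairs. With the replicate block 3 members fell, and 2625 probe sets fell and 862 rose. PMS2/PMS2CL 209805_at lost its call there (limma, adjusted p = 0.0908). Few arrays and signals near those of unexpressed genes limit MSH6 211449_at most.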
